A study of Mus musculus with 39 samples.

Results

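The comparison described here sets wild-type mice given pirinixic acid against wild-type mice given its vehicle, methylcellulose. It takes the 4 arrays labelled wild type with 50 mg/kg pirinixic acid and the 3 arrays labelled wild type with 0.5% methylcellulose, 7 of the 39 arrays and 2 of the 10 groups in the series, and uses every probe with a value on all arrays. All mice were adult males of the 129SV background, given their compound or vehicle by gavage for 7 days running, and each array holds the liver RNA of 1 animal. Pirinixic acid, which the labels give by its Wyeth code, is a synthetic activator of the nuclear receptor PPARα. 2 further pairs of groups are used where a result turns on them. The first is PPARα-null mice with 50 mg/kg pirinixic acid (4 arrays) against PPARα-null mice with 0.5% methylcellulose (4 arrays). The second is wild-type mice with 3 mg/kg PFOA (perfluorooctanoic acid, given as its ammonium salt; 4 arrays) against wild-type mice with water (4 arrays). The labels do not describe the null allele further.

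PPARα is a receptor for fatty acids and their derivatives. With its partner RXR it binds direct repeats of a short DNA half-site near genes by which fatty acids are taken up, activated and oxidised in peroxisomes, mitochondria and the endoplasmic reticulum. In mice and rats its activators enlarge the liver and multiply peroxisomes, from which the name peroxisome proliferator comes. In fasting the receptor is known to turn the liver towards burning fatty acids and making ketone bodies.

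The values are log2 signals of Applied Biosystems Mouse Genome Survey arrays, and 25295 of 33012 probes had a value on all 39 arrays. Across these probes, arrays correlated at 0.943 to 0.974 within the pirinixic acid group, at 0.957 to 0.964 within the methylcellulose group and at 0.931 to 0.953 between the groups. 1 log2 unit is a doubling of signal, and signals of different probes are not compared with each other. A probe counts as changed where limma, fitted on all 39 arrays, gave a two-sided p under 0.05 after Benjamini-Hochberg adjustment across the 25295 probes. Group means are given with their SD, and differences with the standard error (SE) of that fit. The number of arrays limits the precision. A group of 125 probes that vary together split the 39 arrays into a larger set of 23 and a smaller set of 16, for which no label gives a name, with all 4 pirinixic acid arrays and methylcellulose replicates 2 and 3 in the larger set and methylcellulose replicate 1 in the smaller. The mean level of genes silent in liver was 8.75, 9.01, 8.88 and 9.04 on the pirinixic acid arrays, against 8.76, 8.76 and 8.77 (exact permutation test, two-sided, p = 0.143), and its part in the results was not tested beyond a fit with it as a covariate.

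Pirinixic acid changed 1542 probes, 6.1% of those tested. Of these, 708 (2.8%) were higher and 834 (3.3%) lower than with methylcellulose, and 447 of the higher and 383 of the lower probes differed by at least 2-fold. The groups did not overlap at 1417 of the 1542 changed probes (91.9%), against 17.4% of all probes. Among the 11591 genes with a probe of their own, 871 changed (7.51%), of which 414 rose (3.57%) and 457 fell (3.94%), and the median log2 difference was -0.05. The count depended on single arrays. It was 835, 876 and 797 probes without methylcellulose replicate 1, 2 or 3, 859 without pirinixic acid replicate 3, and 2399 without pirinixic acid replicate 1. It was 70 (61 higher, 9 lower) where the fit used the 7 arrays alone and 249 (160 higher, 89 lower) where it used the larger set of arrays alone. The balance of rises and falls therefore also depended on the arrays in the fit. Of the 138 changed genes named below, 101, 104 and 101 still passed without methylcellulose replicate 1, 2 or 3, and 136, 118, 100 and 126 without pirinixic acid replicate 1, 2, 3 or 4.

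The 4 pirinixic acid arrays did not lie equally far from the methylcellulose mean at the changed probes, which these same arrays had selected. With 1 array per animal, response to the compound, array and time of sampling cannot be told apart here. At 797 of the 1542 changed probes (51.7%) replicate 3 lay farthest from the methylcellulose mean in the direction of the change, and at 820 (53.2%) replicate 1 lay nearest to it. The median shift of these probes from the methylcellulose mean was 0.75, 1.05, 1.30 and 1.02 log2 units in replicates 1, 2, 3 and 4. Replicate 3 therefore weighs more than the others in many of the values below, and its level is named where it stands apart.

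Genes of fatty acid oxidation were among the largest rises. Cyp4a31, a cytochrome P450 of the family that hydroxylates fatty acids at their omega end, had log2 signals of 16.70, 16.67, 17.79 and 16.81 with pirinixic acid, against 10.48, 10.54 and 9.85 with methylcellulose. Every treated array lay more than 6 log2 units above every vehicle array, and the difference was 6.71 ± 0.88 (SE), a 104-fold rise (adjusted p = 1.23e-05). Its relative Cyp4a14 was near the top of the signal range with pirinixic acid, at 20.06, 20.48, 20.60 and 20.25, against 11.73, 15.66 and 14.76 with methylcellulose. The groups did not overlap, and the difference was 6.29 ± 1.78 (adjusted p = 0.0304), with an error estimated from all 39 arrays. That call was lost when methylcellulose replicate 1 or 3, or pirinixic acid replicate 2, 3 or 4, was left out. Members of the Cyp4a family are near-identical copies, and whether these probes tell them apart was not tested.

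Ehhadh, the peroxisomal bifunctional enzyme that carries out the middle steps of beta-oxidation, had signals of 20.28, 20.49, 20.84 and 20.74 with pirinixic acid, against 15.49, 15.83 and 16.02 with methylcellulose. The groups were far apart and tight, and the rise was 28-fold (log2 difference 4.81 ± 0.56, adjusted p = 2.54e-06). Acot1, a cytosolic thioesterase that releases free fatty acids from acyl-CoA, reached 16.79, 17.88, 20.27 and 17.04, against 12.71, 14.23 and 14.18, a difference of 4.29 ± 0.55 (adjusted p = 8.33e-06). Replicate 3 stood more than 2 log2 units above the other treated animals for this gene. Hao2, a peroxisomal oxidase of 2-hydroxy acids whose level is higher in female than in male mouse liver, had 11.96, 12.64, 11.58 and 12.07, against 7.73, 8.60 and 7.64 (difference 4.07 ± 0.50, adjusted p = 5.82e-06). Here replicate 3 was the lowest of the 4 treated animals and the groups were still well separated. The methylcellulose signals of Hao2 were below the mean level of genes silent in liver, so the size of its rise is uncertain.

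Genes of fatty acid entry and glyceride synthesis were also among the largest rises. Cd36, the plasma membrane carrier of long-chain fatty acids, had 17.06, 17.16, 17.80 and 17.20 with pirinixic acid, against 12.59, 13.16 and 12.87 with methylcellulose, a 21.6-fold rise (difference 4.43 ± 0.42, adjusted p = 3.93e-08). Fabp4, the fatty acid binding protein best known from adipocytes and macrophages, had 15.73, 17.25, 18.47 and 17.07, against 12.77, 12.85 and 12.59 (difference 4.39 ± 0.32, adjusted p = 8.63e-11). The vehicle mice were nearly alike and every treated mouse lay well above them. Mogat1, which joins a fatty acid to monoacylglycerol, had 14.18, 15.03, 15.62 and 14.43, against 9.01, 9.49 and 9.86 (difference 5.36 ± 0.84, adjusted p = 0.000139).

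The other large rises were of genes that are not classed here with fatty acid metabolism. Amn, the membrane anchor of the cubilin receptor that takes up vitamin B12 with intrinsic factor, had 11.79, 12.97, 14.59 and 12.41, against 7.76, 6.80 and 6.95. All treated animals were at least 4 log2 units above the vehicle animals (difference 5.77 ± 0.64, adjusted p = 1.15e-06). The methylcellulose signals of Amn were below the mean level of genes silent in liver, so the size of its rise is uncertain. Hes7, a repressor of transcription known from the segmentation of the embryo, had 15.30, 15.65, 16.01 and 15.67, against 10.26, 11.26 and 10.34 (difference 5.04 ± 0.71, adjusted p = 3.37e-05). Lamb3, a laminin chain of basement membranes, had 14.95, 14.86, 16.67 and 15.33, against 10.70, 10.37 and 10.80, a difference of 4.83 ± 0.34 (adjusted p = 8.63e-11). The remaining members of the 15 largest rises were Serinc2 (4.38 ± 0.61), Krt23, a keratin (4.22 ± 0.78), Slc39a5, a zinc transporter (3.97 ± 0.50), and Ston1, an adaptor of endocytosis (6.69 ± 1.23). Ston1 has a second probe that gave only 0.93 and did not pass the test, so the large value belongs to 1 of 2 probes.

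**Figure D1:**
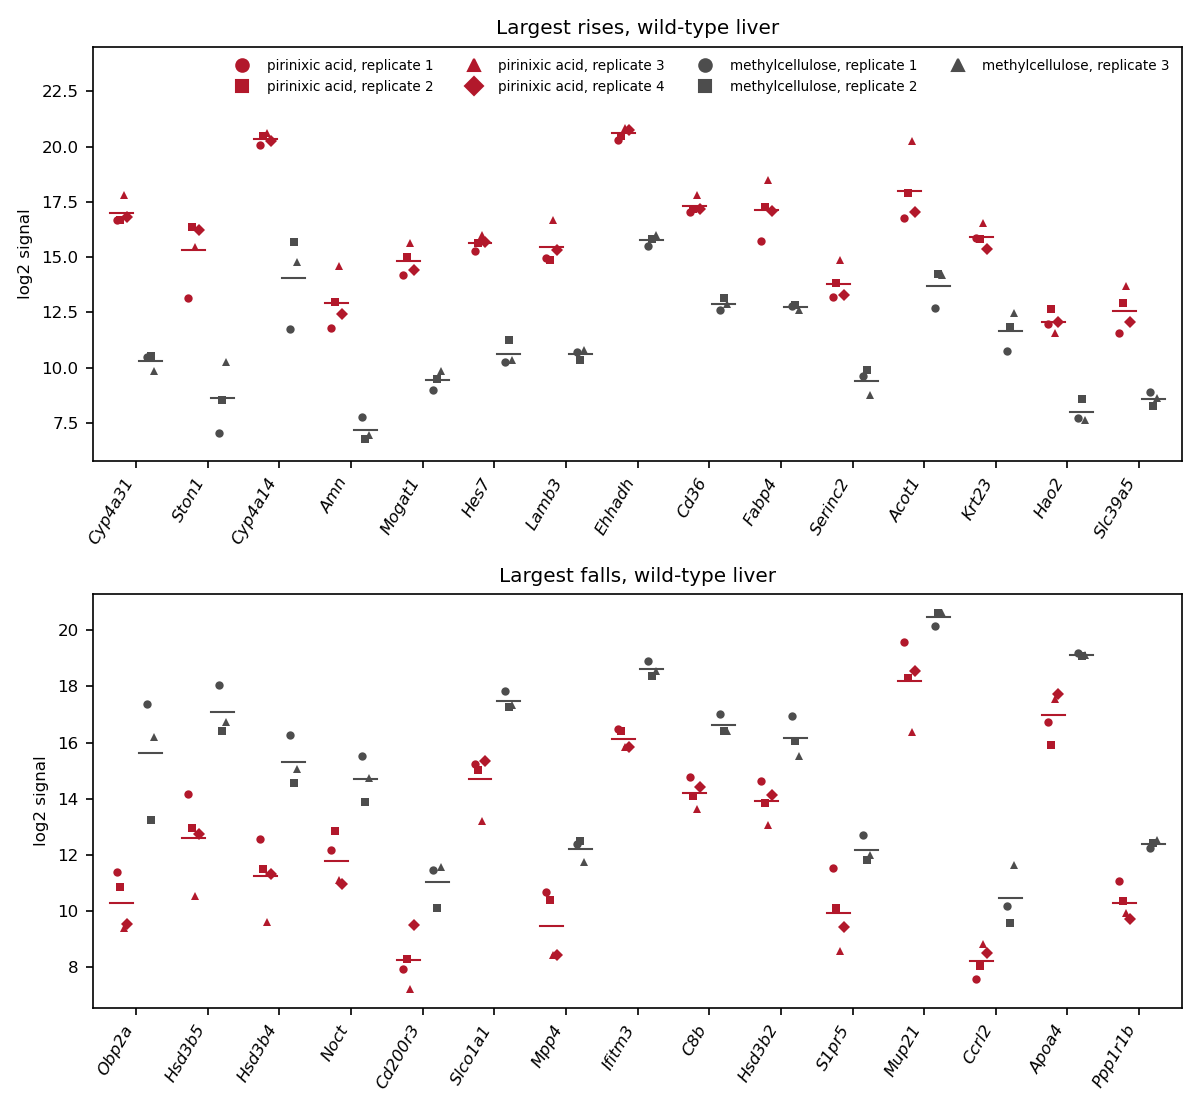
The vertical axis is the log2 signal in wild-type liver for the 15 largest rises (upper panel) and the 15 largest falls (lower panel), with pirinixic acid arrays in red, methylcellulose arrays in grey and a bar at each group mean. The marker shape is the replicate number: the pirinixic acid triangle, replicate 3, is the treated array farthest from the methylcellulose mean for 13 of the 15 rises and 10 of the 15 falls.

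The promoters of risen genes are printed because PPARα binds DNA at direct repeats. Each runs from 250 bases before to 50 bases after the start of the gene, from RefSeq on GRCm38.p6, and is given 5′ to 3′ on the strand of the gene. Capitals mark matches to a direct repeat, AGGTCA followed by any 1 base (N) and a second AGGTCA, with at most 2 mismatches over the 12 fixed letters, or exact matches to the half-site AGGTCA, on either strand, and overlapping matches of both kinds share their capitals. Ston1, Amn, Mogat1 and Hes7 are the first 4 of the largest rises with an entry, and Cd36 was added after its match was seen.
Ston1 (chr17:88626305-88626604, + strand): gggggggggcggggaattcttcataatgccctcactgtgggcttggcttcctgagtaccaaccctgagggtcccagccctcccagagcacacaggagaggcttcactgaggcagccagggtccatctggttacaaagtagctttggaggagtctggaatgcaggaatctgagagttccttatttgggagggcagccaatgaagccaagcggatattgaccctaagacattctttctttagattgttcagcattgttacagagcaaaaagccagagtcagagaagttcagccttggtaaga
Amn (chr12:111270846-111271145, + strand): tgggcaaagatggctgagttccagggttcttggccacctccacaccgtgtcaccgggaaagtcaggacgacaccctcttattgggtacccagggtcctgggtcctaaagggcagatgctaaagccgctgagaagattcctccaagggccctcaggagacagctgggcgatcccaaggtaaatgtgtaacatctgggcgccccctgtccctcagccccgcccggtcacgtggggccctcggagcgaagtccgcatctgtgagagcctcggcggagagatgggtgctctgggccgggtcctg
Mogat1 (chr1:78510810-78511109, + strand): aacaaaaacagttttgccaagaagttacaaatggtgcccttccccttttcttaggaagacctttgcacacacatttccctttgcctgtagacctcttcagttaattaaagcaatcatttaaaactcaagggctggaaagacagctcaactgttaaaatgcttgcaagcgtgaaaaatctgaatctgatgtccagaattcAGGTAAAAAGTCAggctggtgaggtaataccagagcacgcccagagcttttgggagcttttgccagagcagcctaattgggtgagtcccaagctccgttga
Hes7 (chr11:69120203-69120502, + strand): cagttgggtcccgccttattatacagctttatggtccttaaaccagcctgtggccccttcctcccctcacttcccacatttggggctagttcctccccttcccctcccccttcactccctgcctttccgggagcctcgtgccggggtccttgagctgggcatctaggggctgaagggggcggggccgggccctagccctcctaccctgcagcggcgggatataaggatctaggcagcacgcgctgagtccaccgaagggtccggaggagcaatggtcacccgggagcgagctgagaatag
Cd36 (chr5:17835847-17836146, - strand): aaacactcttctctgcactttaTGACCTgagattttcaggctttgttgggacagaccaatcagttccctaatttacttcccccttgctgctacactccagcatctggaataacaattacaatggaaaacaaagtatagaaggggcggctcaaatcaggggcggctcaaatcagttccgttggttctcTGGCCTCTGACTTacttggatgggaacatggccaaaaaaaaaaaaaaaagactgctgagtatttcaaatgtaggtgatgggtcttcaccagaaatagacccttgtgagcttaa
Mogat1 holds 1 match to the repeat, on its own strand with 2 mismatches, whose first base is at -51 from the gene's start. Cd36 holds 1 match on the opposite strand with 2 mismatches, whose first printed base is at -63, and 1 half-site further upstream, also on the opposite strand. The windows of Ston1, Amn and Hes7 hold no such letters. The repeat was present in 3.93% of the 458 promoters of risen genes and in 4.19% of the 501 promoters of fallen genes, against 3.22% of the 11836 promoters of all tested genes and 3.86% of all 32851 promoters of the same length. The half-site was present in 14.2% of the promoters of risen genes and 13.8% of those of fallen genes, against 13.7% for tested genes and 16.3% for all promoters. Among the 17 promoters of the largest and the always reported rises, from which those printed were taken, 3 held the repeat (Mogat1, Cd36 and 1 promoter of Slc39a5) and 1 the half-site. A match is a description of letters, and no match says nothing about binding outside this window.

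Fatty acid oxidation was measured by gene lists, each described by its counts and median beside those of all genes. Of the 25 listed genes of peroxisomal beta-oxidation, 22 were measured, 10 of these rose and 1 fell, against 3.57% and 3.94% of all genes, and their median difference was 0.86. Apart from Ehhadh and Hao2, the rises were of 0.67 to 2.36 log2 units. Crat, which moves acetyl groups between CoA and carnitine, had 16.05, 17.17, 19.18 and 16.39 with pirinixic acid, against 14.53, 15.51 and 14.49 with methylcellulose (difference 2.36 ± 0.50, adjusted p = 0.00383). Its partner for medium chains, Crot, rose by 1.54 ± 0.35 (adjusted p = 0.00672). Ech1, an isomerase for unsaturated chains, had 17.73, 17.67, 18.43 and 17.49, against 15.99, 16.20 and 16.17 (difference 1.71 ± 0.33, adjusted p = 0.00191), with all treated animals above all vehicle animals. Hao1, the glycolate oxidase that makes glyoxylate, was the member that fell, by 0.80 ± 0.18 (adjusted p = 0.00652). Leaving out 1 array left 7 to 12 rises in this list.

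The machinery that builds peroxisomes moved less. Of 19 measured peroxins and division factors of 23 listed, 3 rose and none fell, with a median of 0.22. Tmem135, a peroxisomal membrane protein, rose by 0.94 ± 0.21 (adjusted p = 0.00627), Pex3, which inserts peroxisomal membrane proteins, by 0.58 ± 0.18 (adjusted p = 0.0449) and Pex16, its recruiting partner, by 0.59 ± 0.18 (adjusted p = 0.0456). Both of the smaller calls were lost without any single methylcellulose array, and the list then held 1 rise. Pex11a, which elongates peroxisomes before they divide and is a known target of peroxisome proliferators, had 15.86, 16.47, 18.75 and 15.91 with pirinixic acid, against 15.49, 16.09 and 16.13 with methylcellulose. Only replicate 3 was clearly above the vehicle animals, and the gene did not pass the test (difference 0.85 ± 0.47, adjusted p = 0.304).

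In mitochondria, 6 of 17 measured genes of beta-oxidation and ketogenesis, of 24 listed, rose and none fell, with a median of 0.94. The rises covered the acyl-CoA dehydrogenases Acadl (1.61 ± 0.28, adjusted p = 0.000532) and Acadvl (0.94 ± 0.26, adjusted p = 0.0248) and both subunits of the trifunctional protein, Hadha (1.19 ± 0.34, adjusted p = 0.0302) and Hadhb (1.24 ± 0.24, adjusted p = 0.00172). They also covered the auxiliary enzymes of unsaturated chains. Decr1 had 19.46, 19.06, 20.04 and 19.08 with pirinixic acid, against 17.88, 17.83 and 17.98 with methylcellulose. The lowest treated array was more than 1 log2 unit above the highest vehicle array (difference 1.51 ± 0.23, adjusted p = 8.72e-05), and Eci1 rose in the same way by 1.54 ± 0.33 (adjusted p = 0.00448). With 1 array left out, 4 to 8 members rose.

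Genes of omega-oxidation moved in both directions. Of 10 measured genes of 16 listed, 3 rose and 2 fell, with a median of -0.15. Beside both Cyp4a genes, Aldh3a2, the fatty aldehyde dehydrogenase, rose, with 15.77, 16.34, 17.89 and 16.26 against 14.59, 14.82 and 14.69 (difference 1.87 ± 0.38, adjusted p = 0.00287). Of the 4 measured Cyp4f genes, 2 fell. Cyp4f14, which hydroxylates leukotrienes and other eicosanoids, had 17.26, 16.50, 15.01 and 16.99 with pirinixic acid, against 17.97, 18.30 and 18.18 with methylcellulose, and fell by 1.71 ± 0.31 (adjusted p = 0.000702). Cyp4f18 fell by 0.97 ± 0.23 (adjusted p = 0.0104), a call lost without pirinixic acid replicate 3, and Cyp4f13 had a difference of -0.62 ± 0.21 that did not pass (adjusted p = 0.0717). All treated arrays lay below all vehicle arrays for these 3 genes. The last member, Cyp4f15, named after its values were seen, had overlapping groups and did not pass (difference 0.27 ± 0.19, adjusted p = 0.436).

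Acyl-CoA thioesterases of the cytosol, peroxisomes and mitochondria were among the rises. Of 10 measured genes of 12 listed, 5 rose and none fell, with a median of 0.98, and 2 rose without pirinixic acid replicate 3 or methylcellulose replicate 1 or 3. Beside Acot1 in the cytosol these were Acot8 (1.37 ± 0.31, adjusted p = 0.00672) and Acot5 (2.61 ± 0.68, adjusted p = 0.0174) of peroxisomes, Acot12 (0.63 ± 0.19, adjusted p = 0.0449), which hydrolyses acetyl-CoA in the cytosol, and the mitochondrial Acot13 (0.48 ± 0.14, adjusted p = 0.04). The value of Acot5 rested on 1 animal: its signals were 8.88, 9.98, 13.26 and 8.96 with pirinixic acid, against 7.71, 7.62 and 7.63 with methylcellulose. The groups did not overlap, but the call was lost without replicate 3 and without any single methylcellulose array.

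Uptake, binding and activation of fatty acids had 8 rises and no fall among 16 measured genes of 20 listed, with a median of 1.30, the highest of the lists of fatty acid handling. With 1 array left out, 7 to 9 rose. Slc27a1, a fatty acid transport protein of muscle and adipose tissue, had 12.94, 13.71, 15.60 and 13.29, against 10.65, 10.64 and 10.79, a 9.14-fold rise (difference 3.19 ± 0.41, adjusted p = 8.33e-06). Fabp2, the intestinal fatty acid binding protein, rose by 1.85 ± 0.24 (adjusted p = 8.08e-06), Acsl5, an acyl-CoA synthetase, by 1.60 ± 0.23 (adjusted p = 4.22e-05) and Dbi, the acyl-CoA binding protein, by 1.45 ± 0.19 (adjusted p = 1.09e-05). Dbi was among the tightest of these, with 15.77, 16.15, 16.43 and 16.20 against 14.67, 14.60 and 14.80.

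Genes of lipid droplets and triglyceride turnover rose in part. Of 19 measured genes of 24 listed, 4 rose and none fell, with a median of 0.50. Beside Mogat1 these were Mgll, which splits monoacylglycerol (1.70 ± 0.34, adjusted p = 0.00219), and the droplet coat proteins Plin2 (1.62 ± 0.43, adjusted p = 0.0216) and Cidec (2.20 ± 0.55, adjusted p = 0.0136). Replicate 3 led each of these. Cidec had 9.67, 9.93, 12.84 and 9.13 with pirinixic acid, against 8.39, 7.74 and 8.44 with methylcellulose, and Plin2 had 15.70, 16.38, 18.29 and 16.17, against 14.71, 15.10 and 15.22. Both calls were lost without replicate 3 and without methylcellulose replicate 2, and the list then held 2 rises.

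Among regulators of the fasting response, Pdk4 and Fgf21 were highest in the same treated animal, replicate 3. Pdk4, the kinase that switches off pyruvate dehydrogenase, had 12.13, 12.44, 19.51 and 14.33 with pirinixic acid, against 10.12, 11.50 and 11.11 with methylcellulose. Replicate 3 was more than 5 log2 units above the next animal, and the rise of 3.69 ± 0.98 (adjusted p = 0.0204) was lost without it and without methylcellulose replicate 1 or 3. Fgf21, the hepatic fasting hormone, had 11.63, 12.15, 14.81 and 12.70, against 10.94, 12.05 and 11.08, and did not pass the test (difference 1.47 ± 0.83, adjusted p = 0.323). Pdk4 was the only one of 9 measured fasting regulators of 10 listed that passed. The median of the list was -0.10, with 4 differences above 0 and 5 below.

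Ppara itself was level, with 16.75, 16.71, 16.78 and 16.07 with pirinixic acid, against 16.37, 16.74 and 16.84 with methylcellulose (difference -0.07 ± 0.23, adjusted p = 0.902). None of the 15 measured nuclear receptors and cofactors of 21 listed passed the test in limma. Nr1i3 (CAR), a receptor of xenobiotics, differed by -0.22 ± 0.19 (adjusted p = 0.552) and Nr1h4 (FXR), the bile acid receptor, by -0.60 ± 0.28 (adjusted p = 0.205).

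Genes that make lipids rose as well. Cholesterol synthesis and uptake had 9 rises and no fall among 15 measured genes of 24 listed, with a median of 1.18, and all 15 differences were above 0. Hmgcs1, which makes the HMG-CoA of the mevalonate pathway, had 18.04, 18.23, 19.10 and 18.46 with pirinixic acid, against 16.07, 15.47 and 15.92 with methylcellulose (difference 2.64 ± 0.55, adjusted p = 0.00317). Pmvk, a kinase of the mevalonate pathway, had 16.82, 16.55, 16.99 and 16.93, against 15.11, 14.90 and 15.39 (difference 1.69 ± 0.33, adjusted p = 0.00186). For both genes the groups were separated by more than 1 log2 unit. Mvd (2.06 ± 0.51, adjusted p = 0.0133), Idi1 (1.64 ± 0.34, adjusted p = 0.00333), Cyp51 (1.48 ± 0.35, adjusted p = 0.0089) and Sc5d (1.05 ± 0.25, adjusted p = 0.00998) of the later pathway rose too. The count fell to 4 without methylcellulose replicate 2 or 3, and to 5 when an index of clock genes, described below, was a covariate.

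Fatty acid synthesis, desaturation and elongation had 8 rises and 1 fall among 22 measured genes of 24 listed, with a median of 0.71, and the fall was lost without any single array other than pirinixic acid replicate 1. Elovl5, which elongates polyunsaturated fatty acids, had 18.53, 19.42, 19.84 and 19.45, against 17.27, 17.15 and 17.51, a 4.01-fold rise (adjusted p = 4.22e-05). The desaturases of the same chains, Fads1 (0.81 ± 0.14, adjusted p = 0.000655) and Fads2 (1.39 ± 0.25, adjusted p = 0.000695), rose with it, and so did Me1, the malic enzyme that supplies NADPH, by 2.37 ± 0.50 (adjusted p = 0.00342). Elovl7, an elongase of saturated chains, had 8.61, 11.64, 13.47 and 10.15, against 7.09, 7.77 and 8.31, with a wide spread among treated animals (difference 3.25 ± 0.74, adjusted p = 0.00709). Among 17 measured apolipoprotein and lipoprotein genes of 23 listed, 1 rose and 2 fell. Pltp, the phospholipid transfer protein of HDL, had 15.22, 15.83, 16.08 and 15.46, against 12.27, 11.82 and 12.14, an 11.9-fold rise (difference 3.57 ± 0.37, adjusted p = 4.44e-07). Apoa4, an apolipoprotein of triglyceride-rich particles, had 16.74, 15.91, 17.55 and 17.73, against 19.18, 19.08 and 19.14 (difference -2.15 ± 0.30, adjusted p = 3.54e-05), and Apom, the HDL carrier of sphingosine-1-phosphate, fell by 1.35 ± 0.18 (adjusted p = 1.28e-05).

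**Figure D2:**
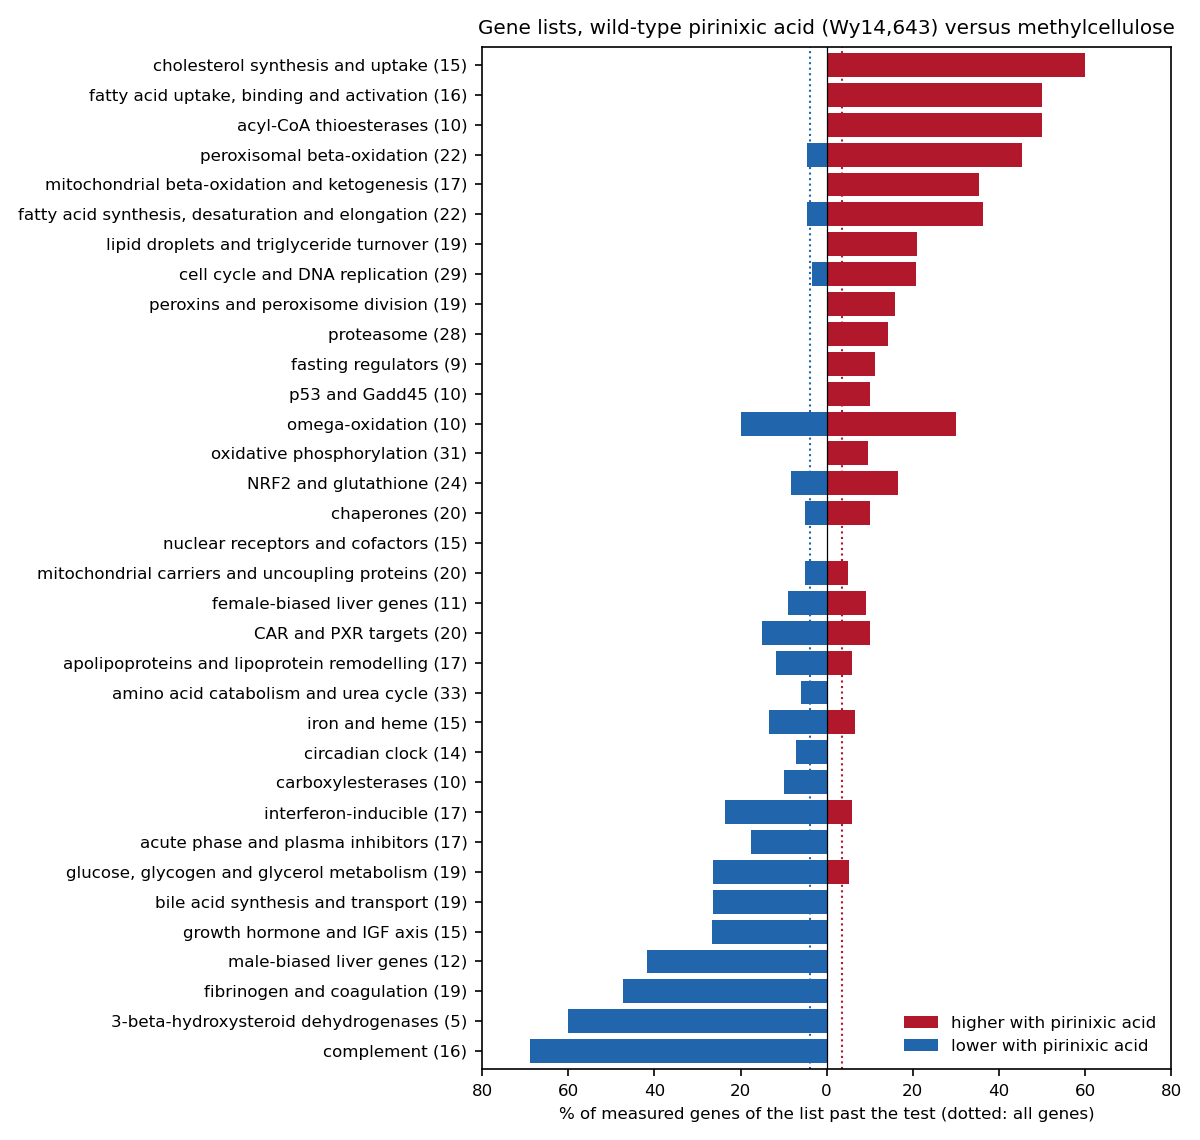
Each row is a gene list with the number of measured genes in brackets, and bars give the percentage of these that passed the test, to the right for genes higher and to the left for genes lower with pirinixic acid than with methylcellulose. The dotted lines are the shares over all genes, 3.57% and 3.94%; the lists of lipid handling lie at the top and complement and coagulation near the bottom.

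The largest falls were led by steroid and odorant proteins. Obp2a, a lipocalin that binds odorants, had 11.38, 10.84, 9.39 and 9.54 with pirinixic acid, against 17.39, 13.25 and 16.21 with methylcellulose, a difference of -5.33 ± 0.97 (adjusted p = 0.000855). Hsd3b5, a 3-ketosteroid reductase of male mouse liver, had 14.16, 12.95, 10.51 and 12.73, against 18.05, 16.43 and 16.75 (difference -4.49 ± 0.75, adjusted p = 0.000315). Replicate 3 was the lowest animal for both genes. Of 5 measured members of the Hsd3b family of 7 listed, Hsd3b5, Hsd3b4 (-4.07 ± 0.75, adjusted p = 0.00095) and Hsd3b2 (-2.26 ± 0.43, adjusted p = 0.00144) fell and none rose. Hsd3b6 (0.32 ± 0.21, adjusted p = 0.407) and Hsd3b7, the enzyme of bile acid synthesis (0.46 ± 0.21, adjusted p = 0.212), did not pass. Smaller falls among the 15 largest were those of Cd200r3, a receptor of the CD200 family (-2.80 ± 0.61), Mpp4, a scaffold protein (-2.72 ± 0.64), S1pr5, a receptor of sphingosine-1-phosphate (-2.26 ± 0.44), Ccrl2, an atypical chemokine receptor (-2.24 ± 0.54, a call lost without methylcellulose replicate 3), and Ppp1r1b, a phosphatase inhibitor known from neurons (-2.13 ± 0.35). Hsd3b genes are close copies, and whether the probes of the 3 fallen members read 1 transcript was not tested.

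Other genes known to be higher in male than in female mouse liver fell too. Of 12 measured male-biased genes of 18 listed, 5 fell and none rose, with a median of -1.16, and 5 or 6 fell with 1 array left out. These 5 include Hsd3b5, given above, and C8b, given below with complement. Slco1a1, an uptake transporter of organic anions, had 15.22, 15.01, 13.21 and 15.33, against 17.85, 17.27 and 17.33 (difference -2.79 ± 0.35, adjusted p = 7.68e-06). Ugt2b1, a steroid glucuronosyltransferase, fell by 1.96 ± 0.29 (adjusted p = 5.58e-05) and Gstp1, a glutathione transferase, by 1.48 ± 0.25 (adjusted p = 0.000401). Mup21, a major urinary protein that is not in this list, had 19.59, 18.30, 16.39 and 18.55, against 20.14, 20.63 and 20.62 (difference -2.25 ± 0.42, adjusted p = 0.0011), with the usual limit that these proteins are encoded by near-identical copies. Of 11 measured female-biased genes of 18 listed, only Hao2 rose and only Cyp3a44 fell (-0.62 ± 0.19, adjusted p = 0.0447), and the call of Cyp3a44 was lost without any single methylcellulose array and without pirinixic acid replicate 2 or 3. In the growth hormone and IGF axis, which sets this sex bias in mice, 4 of 15 measured genes of 18 listed fell and none rose. These were the receptor Ghr (-0.89 ± 0.16, adjusted p = 0.000631), Egfr (-1.37 ± 0.35, adjusted p = 0.0146), Igfals (-1.11 ± 0.32, adjusted p = 0.0327) and Igfbp4 (-0.75 ± 0.23, adjusted p = 0.0499). Without replicate 3 or methylcellulose replicate 1, 1 of them remained past the test.

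Plasma proteins made by hepatocytes fell together in several lists. Complement had 11 falls and no rise among 16 measured genes of 22 listed, with a median of -0.85. C8b, a subunit of the membrane attack complex, had 14.76, 14.09, 13.62 and 14.40 with pirinixic acid, against 17.03, 16.40 and 16.41 with methylcellulose (difference -2.39 ± 0.26, adjusted p = 5.79e-07). Its companion C8a had 13.90, 13.52, 13.12 and 14.00, against 15.95, 15.36 and 15.07 (difference -1.83 ± 0.27, adjusted p = 6.38e-05). In the early steps, the protease C1ra fell by 1.42 ± 0.20 (adjusted p = 2.91e-05), C2 by 1.35 ± 0.26 (adjusted p = 0.00145) and factor B, Cfb, by 0.86 ± 0.16 (adjusted p = 0.000877). The inhibitor C4bp fell by 0.88 ± 0.18 (adjusted p = 0.00259). Between 7 (without methylcellulose replicate 1) and 12 members fell with 1 array left out.

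Coagulation had 9 falls and no rise among 19 measured genes of 22 listed, with a median of -0.51, and all 19 differences were below 0. The falls were small, as for F10 (-0.70 ± 0.15, adjusted p = 0.00507), the anticoagulant protease Proc (-0.57 ± 0.13, adjusted p = 0.00709), the thrombin inhibitor Serpind1 (-0.70 ± 0.17, adjusted p = 0.01) and F5 (-0.80 ± 0.20, adjusted p = 0.0139). This count rested on single arrays more than that of complement: it was 2 without pirinixic acid replicate 3, and 4, 3 and 3 without methylcellulose replicate 1, 2 or 3. In the acute phase list 3 of 17 measured genes of 29 listed fell, all heavy chains of the inter-alpha-trypsin inhibitor: Itih1 (-0.81 ± 0.24, adjusted p = 0.0377), Itih2 (-0.76 ± 0.15, adjusted p = 0.00245) and Itih3 (-0.86 ± 0.22, adjusted p = 0.0146). Without methylcellulose replicate 1 or 2, 1 of the list fell, and without pirinixic acid replicate 1, 5 did.

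Not every secreted hepatocyte protein was lower. Albumin was level, with Alb at 21.10, 20.66, 20.79 and 20.57 against 20.97, 20.42 and 20.97 (difference -0.01 ± 0.23, adjusted p = 0.99), and so was transthyretin, Ttr (-0.05 ± 0.19, adjusted p = 0.931). Of 6 measured hepatocyte markers of 9 listed, Trf, the iron carrier transferrin (-0.93 ± 0.19, adjusted p = 0.0021), and Ahsg, fetuin A (-0.87 ± 0.22, adjusted p = 0.0128), fell. Among 15 measured genes of iron and heme metabolism of 17 listed, Trf and Tfr2, a sensor of transferrin (-0.62 ± 0.16, adjusted p = 0.0176), fell and Fth1, the ferritin heavy chain, rose (0.44 ± 0.11, adjusted p = 0.0149). The calls of Ahsg and Tfr2 were lost without pirinixic acid replicate 3 or methylcellulose replicate 1, that of Tfr2 also without methylcellulose replicate 2, and that of Fth1 without methylcellulose replicate 1 or 3.

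Bile acid synthesis and transport had 5 falls and no rise among 19 measured genes of 24 listed, with a median of -0.72. Beside Slco1a1 these were Slc10a1, the sodium-dependent uptake carrier of bile acids (-0.83 ± 0.23, adjusted p = 0.029), Baat, which conjugates them to amino acids (-0.82 ± 0.23, adjusted p = 0.0266), Cyp2c70, which makes muricholic acids in mice (-1.44 ± 0.39, adjusted p = 0.0242), and Akr1c6 (-0.70 ± 0.15, adjusted p = 0.00398). Replicate 3 was the lowest animal for each of the 5, and 2 of the list fell without it or without methylcellulose replicate 3, against 8 without replicate 1. Cyp7a1, the rate-limiting enzyme of bile acid synthesis, had 13.73, 14.05, 11.36 and 11.14 with pirinixic acid, against 13.40, 14.22 and 13.66 with methylcellulose. Replicates 1 and 2 lay within the range of the vehicle animals, replicates 3 and 4 lay below it, and the gene did not pass (difference -1.19 ± 0.88, adjusted p = 0.476).

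In glucose, glycogen and glycerol metabolism, 5 genes fell and 1 rose among 19 measured of 25 listed, with a median of -0.63. The gluconeogenic enzyme Fbp1 had 18.83, 18.06, 18.14 and 18.21, against 19.36, 19.06 and 19.25 (difference -0.91 ± 0.17, adjusted p = 0.00112). Pklr, the pyruvate kinase of glycolysis, fell by 1.74 ± 0.37 (adjusted p = 0.00432), Khk, the fructokinase, by 0.79 ± 0.21 (adjusted p = 0.0209), Pygl, glycogen phosphorylase, by 0.78 ± 0.23 (adjusted p = 0.0405) and Pck1, of gluconeogenesis, by 1.37 ± 0.42 (adjusted p = 0.0433). Pck1 overlapped between groups: 19.49, 19.43, 17.07 and 19.95 with pirinixic acid, against 20.63, 19.91 and 20.54 with methylcellulose. Without replicate 3 or methylcellulose replicate 3, 2 of these genes fell, and 3 without methylcellulose replicate 1 or 2. Aqp3, a channel for water and glycerol, rose with overlapping groups by 1.94 ± 0.55 (adjusted p = 0.0316). Of 33 measured genes of amino acid breakdown and the urea cycle of 40 listed, 2 fell, against 3.94% of all genes, and the median was -0.22. These were the urea cycle enzymes Otc (-1.27 ± 0.27, adjusted p = 0.00358) and Asl (-1.12 ± 0.24, adjusted p = 0.0042). Without pirinixic acid replicate 1, 5 of the list fell.

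Interferon-inducible genes were mostly lower. Of 17 measured of 25 listed, 4 fell and 1 rose, with a median of -0.62. The difference was below 0 for 15 of the 17 and above 0 for 2. The antiviral membrane protein Ifitm3 had 16.48, 16.39, 15.85 and 15.83, against 18.91, 18.36 and 18.57, one of the tightest falls (difference -2.47 ± 0.23, adjusted p = 2.89e-08). Its neighbours Ifitm1 (-1.68 ± 0.21, adjusted p = 5.05e-06) and Ifitm2 (-1.12 ± 0.26, adjusted p = 0.00764) and the transcription factor Irf7 (-1.29 ± 0.36, adjusted p = 0.0266) also fell, and the call of Irf7 was lost without methylcellulose replicate 1 or 2 or pirinixic acid replicate 3. A second Ifitm1 probe gave -0.42 and did not pass. Ifi27l2b rose, with 12.36, 13.33, 14.43 and 12.71 against 10.62, 9.88 and 10.28 (difference 2.95 ± 0.43, adjusted p = 5.31e-05).

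Part of the markers of Kupffer cells and of endothelial cells fell in small steps. Of 12 measured Kupffer cell markers of 14 listed, 5 fell and none rose, with a median of -0.62. The mean of the list was 12.5 to 12.8 on the 4 pirinixic acid arrays, against 13.2 to 13.3 on the 3 methylcellulose arrays. Clec4f, the lectin that defines these liver macrophages, had 14.00, 13.32, 13.89 and 13.75, against 14.77, 14.67 and 14.71 (difference -0.97 ± 0.21, adjusted p = 0.00379), and the scavenger receptor Cd163 fell by 0.89 ± 0.21 (adjusted p = 0.0102). Of 14 endothelial markers, all measured, 5 fell and none rose, with a median of -0.52. Among the falls were the sinusoidal lectin Clec4g (-0.70 ± 0.18, adjusted p = 0.0161) and endoglin, Eng (-0.54 ± 0.12, adjusted p = 0.0067). Of the 14 differences, 11 were below 0 and 3 above, and they ran from -1.17 to 1.27. Without methylcellulose replicate 2, and likewise without pirinixic acid replicate 2, 1 endothelial marker rose. In whole liver RNA, fewer cells of a type and less RNA per cell cannot be told apart, and so the part of cell numbers in these values was not tested. The endothelial list averaged 12.03 to 12.52 with pirinixic acid, against 12.40 to 12.81 with methylcellulose. Both counts rested on few arrays. Of the Kupffer cell markers, 1 fell without methylcellulose replicate 2, 2 without its replicate 3, and 3 without its replicate 1 or pirinixic acid replicate 2 or 4. Of the endothelial markers, 1 fell without methylcellulose replicate 2, 2 without its replicate 3 or pirinixic acid replicate 3, 3 without methylcellulose replicate 1 and 8 without pirinixic acid replicate 1. In the stellate cell list, where 5 of 11 differences were above 0 and 6 below, Rgs5 alone fell (-0.68 ± 0.18, adjusted p = 0.0226), a call lost without methylcellulose replicate 1 or 2 or pirinixic acid replicate 2. In the red blood cell list Alas2 alone of 4 fell (-1.01 ± 0.31, adjusted p = 0.0434), a call lost without any single array other than pirinixic acid replicate 1. None of the measured cholangiocyte (4), lymphocyte (8), neutrophil (5), pancreatic acinar (6) or adipocyte (2) markers passed in limma, and their medians were 0.47, 0.28, 0.42, 0.14 and -0.15, with all 5 neutrophil differences above 0. The macrophage and adipocyte gene Fabp4 rose, and no marker of the Kupffer cell list or of the 2 measured adipocyte markers did. Which cells the Fabp4 signal came from was not tested.

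Xenobiotic genes showed no common direction. Of 20 measured targets of the receptors CAR and PXR of 32 listed, 2 rose and 3 fell, with a median of -0.15. Neither rise passed without methylcellulose replicate 1, and no member passed in the larger set of arrays alone. In that set the same held for the coagulation, Hsd3b, Kupffer cell and endothelial lists. Cyp2b10, the usual indicator of CAR activity, had 11.06, 11.66, 9.55 and 12.59, against 10.23, 11.05 and 11.17, with overlapping groups (difference 0.39 ± 0.63, adjusted p = 0.782). The rises were Abcb1a, a drug efflux pump (1.35 ± 0.32, adjusted p = 0.00896), and Cyp3a13 (0.66 ± 0.16, adjusted p = 0.0113). The falls were Cyp2c29 (-1.28 ± 0.31, adjusted p = 0.00998; lost without methylcellulose replicate 2), Cyp2c54 (-1.56 ± 0.35, adjusted p = 0.00581) and Ces2a, which was also the only 1 of 10 measured carboxylesterases of 17 listed to pass (-1.02 ± 0.20, adjusted p = 0.00221). Cyp2c29 had 19.82, 19.75, 17.50 and 19.83, against 20.43, 20.66 and 20.42, and replicate 3 was far below the other treated animals. Of 24 measured NRF2 and glutathione genes of 31 listed, 4 rose and 2 fell (2 rose without methylcellulose replicate 1). Ephx2, the soluble epoxide hydrolase of peroxisomes and cytosol, had 18.04, 18.48, 18.53 and 18.51, against 17.09, 17.28 and 17.15 (difference 1.21 ± 0.29, adjusted p = 0.0105), and Gstk1, a transferase of peroxisomes and mitochondria, rose by 0.86 ± 0.16 (adjusted p = 0.000921).

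Part of the cell cycle list rose. Of 29 measured genes of 42 listed, 6 rose and 1 fell, with a median of 0.31. The replication helicase subunits Mcm6 and Mcm5 were among them: Mcm6 had 10.48, 12.72, 10.77 and 10.30 with pirinixic acid, against 8.59, 8.24 and 8.04 with methylcellulose (difference 2.78 ± 0.57, adjusted p = 0.00259), and Mcm5 rose by 2.04 ± 0.38 (adjusted p = 0.00107). The mitotic kinase gene Aurkb had 9.81, 11.97, 10.26 and 8.49, against 7.07, 8.09 and 7.04 (difference 2.73 ± 0.62, adjusted p = 0.0067). Here replicate 2, not replicate 3, was the highest treated animal, as it was for Birc5, survivin (3.15 ± 0.72, adjusted p = 0.00709), and the mitotic activator Cdc20 (2.58 ± 0.54, adjusted p = 0.00342). The methylcellulose signals of Mcm6 and Aurkb were below the mean level of genes silent in liver. So was the Aurkb signal of pirinixic acid replicate 4, and the size of these rises is uncertain. Cyclin D1, Ccnd1, rose by 1.24 ± 0.34 (adjusted p = 0.023), a call lost without methylcellulose replicate 2 or 3 or pirinixic acid replicate 2 or 3, and that of Birc5 was lost without methylcellulose replicate 3. With 1 array left out, 4 to 7 members of the list rose. Of 10 measured p53 and Gadd45 genes of 16 listed, Fas alone passed (0.86 ± 0.27, adjusted p = 0.047), and this call was lost without methylcellulose replicate 2 or 3 or pirinixic acid replicate 1, 3 or 4. Cdkn1a, the p21 inhibitor of the cell cycle, had 10.43, 11.01, 14.65 and 13.80, against 10.07, 8.40 and 9.64 (difference 3.10 ± 1.02, adjusted p = 0.0633).

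Housekeeping complexes shifted little. Of 28 measured proteasome genes of 38 listed, 4 rose and none fell, with a median of 0.25 and a largest rise of 0.71, that of Psma5 (adjusted p = 0.0194), and 1 rose without methylcellulose replicate 3, or 2 without its replicate 1 or pirinixic acid replicate 2 or 3. Of 31 measured genes of oxidative phosphorylation of 40 listed, 3 rose, among them cytochrome c, Cycs, by 0.91 ± 0.23 (adjusted p = 0.0138), and the median was 0.19. None of these rose without pirinixic acid replicate 3 or methylcellulose replicate 2, and 1 without methylcellulose replicate 1 or 3. Cox6b2, a subunit of cytochrome oxidase known from testis, had 17.09, 16.53, 17.19 and 16.21, against 14.51, 14.11 and 14.28. The groups were well apart, yet the shared error of the fit was large for this probe and it did not pass (difference 2.45 ± 1.00, adjusted p = 0.146). Of 20 measured chaperones of 27 listed, the mitochondrial pair Hspe1 (0.84 ± 0.17, adjusted p = 0.00262) and Hspd1 (0.80 ± 0.22, adjusted p = 0.0245) rose and Hsph1 fell (-1.52 ± 0.37, adjusted p = 0.0108). The call of Hspd1 was lost without any single array other than pirinixic acid replicate 1, and that of Hsph1 without methylcellulose replicate 1. Of 20 measured mitochondrial carriers of 27 listed, 1 rose and 1 fell, near the shares over all genes (3.57% and 3.94%). The ADP/ATP carrier Slc25a5 rose (0.57 ± 0.13, adjusted p = 0.00559) and the aspartate/glutamate carrier Slc25a12 fell (-0.62 ± 0.18, adjusted p = 0.0335). The call of Slc25a5 was lost without methylcellulose replicate 2, and that of Slc25a12 without any single methylcellulose array and without pirinixic acid replicate 2 or 4.

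The treated animals differed from each other in clock genes, which follow the time of day. Dbp, a clock output factor with a strong daily rhythm, had 17.24, 17.18, 13.02 and 13.52 in pirinixic acid replicates 1 to 4, against 17.75, 17.91 and 17.86 with methylcellulose. Replicates 1 and 2 lay within 1 log2 unit of the vehicle animals, and replicates 3 and 4 far below them. Arntl, the core activator whose rhythm runs opposite to that of Dbp, had 9.82, 9.06, 11.87 and 12.65, against 9.81, 9.09 and 7.53. Neither gene passed the test (Dbp -2.60 ± 1.16, adjusted p = 0.186; Arntl 2.04 ± 1.24, adjusted p = 0.36). An index, the mean of Arntl and Npas2 minus the mean of Dbp and Nr1d2, chosen after their values were seen, was -6.25, -7.29, -2.05 and -1.53 with pirinixic acid, against -7.22, -8.07 and -7.10 with methylcellulose (exact permutation test, two-sided, p = 0.2; the smallest p that 35 splits allow is 0.0286). The SD of the index was 2.91 with pirinixic acid and 0.53 with methylcellulose. Wild-type mice given water or PFOA also varied widely. The index was -6.77, -6.46, 0.43 and -4.04 with water, and -6.42, -7.50, -1.43 and -5.73 with 3 mg/kg PFOA. Of 14 measured clock genes of 18 listed, Per1 alone passed (-1.88 ± 0.56, adjusted p = 0.0398), and this call was lost without any single array other than pirinixic acid replicate 1. Noct, nocturnin, a rhythmic phosphatase of NADPH, fell by 2.94 ± 0.81 (adjusted p = 0.0262) and had 12.18, 12.83, 11.09 and 10.96, against 15.51, 13.87 and 14.73. Its call was lost without methylcellulose replicate 1 or 3 or pirinixic acid replicate 3 or 4. With the index as a covariate, a setting chosen after these values were seen, 1191 probes changed, 1035 of them shared with the 1542. Of the 138 changed genes named here, 118 still passed in it, among them Ehhadh, Cd36, Hsd3b5 and C8b. The other 20 did not, among them Pdk4, Noct, Per1, Slc10a1, Mvd, Ccnd1, Igfals and Irf7. Times of sampling are not stated in the labels, and their part in these values was not tested.

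**Figure D3:**
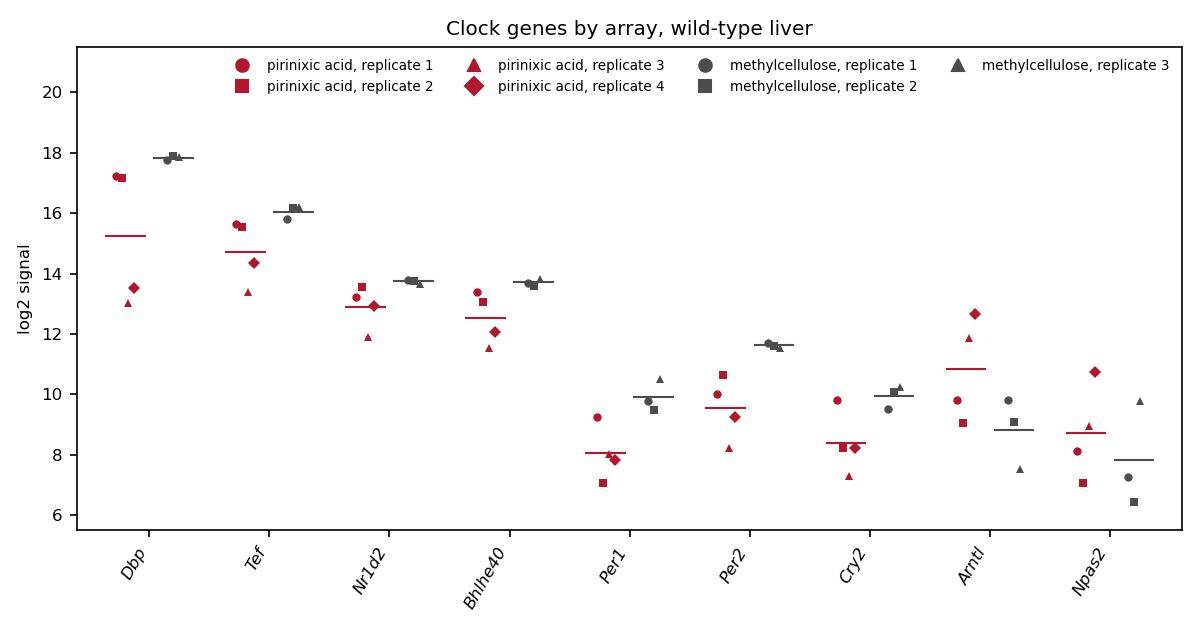
The vertical axis is the log2 signal of 9 clock genes on the 4 pirinixic acid arrays (red) and the 3 methylcellulose arrays (grey) of wild-type liver, with the marker shape giving the replicate and a bar at each group mean. For Dbp, Tef and Bhlhe40, replicates 3 and 4 with pirinixic acid lie below replicates 1 and 2 and below the methylcellulose arrays.

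In PPARα-null mice the same treatment changed 0 probes in limma (691 had an unadjusted p under 0.05, and the smallest adjusted p was 0.99993). The interaction test, of the response in null mice minus that in wild type, found 313 probes (1.24%), 176 with a higher and 137 with a lower response in null mice. This count was 150, 163 and 161 without wild-type methylcellulose replicate 1, 2 or 3, 626 and 169 without wild-type pirinixic acid replicate 1 or 3, 205 without null pirinixic acid replicate 3 and 144 without null methylcellulose replicate 3. Of the 15 largest rises, chosen on the wild-type response, 14 had a different response in null mice, Cyp4a14 being the exception (null -2.24 ± 1.65, adjusted p of the difference 0.0694). Of the 15 largest falls 12 did, and Noct, Mpp4 and Ccrl2 did not pass. The null differences of these 30 genes ran between -2.24 and 1.18. Lamb3 shows the pattern: null mice had 12.07 ± 0.38 with pirinixic acid and 11.69 ± 0.20 with methylcellulose (SD, n = 4 each), a difference of 0.39 ± 0.32, and the responses differed by -4.44 (adjusted p = 1.2e-06).

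The number of genes whose response differed between genotypes varied among the lists, and no test compared the lists with each other. The difference passed for 7 of the 16 measured complement genes, 6 of the 16 of fatty acid uptake and binding, 5 of the 12 male-biased genes and 3 of the 5 measured Hsd3b genes, against 1.67% of all genes. It passed for 3 of the 22 genes of peroxisomal beta-oxidation and for none of the 19 peroxins and division factors, the 19 coagulation genes or the 17 acute phase genes in limma. The tested difference contains the wild-type response, so these counts are not independent of the wild-type counts above. C8b is in both the complement and the male-biased list, and Hsd3b5 in both the male-biased and the Hsd3b list. For Fabp4 the null difference was 0.01 ± 0.29 and the responses differed by -4.38 (adjusted p = 5.39e-07), and for Ifitm3 it was 0.25 ± 0.21 (responses differed by 2.72, adjusted p = 4.66e-06). None of the 15 measured genes of cholesterol synthesis passed. Their median difference in null mice was 0.48, against 1.18 in wild type, and Hmgcs1 had 17.50 ± 0.50 with pirinixic acid and 16.67 ± 1.04 with methylcellulose in null mice, a difference of 0.84 ± 0.51 (adjusted p of the difference in response 0.233). A p that misses the threshold does not show that these genes responded alike. The Ppara probe had a signal in null mice too, 15.88 with pirinixic acid and 16.01 with methylcellulose, but the labels do not say where it lies with respect to the deleted part, and it does not check the genotype.

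**Figure D4:**
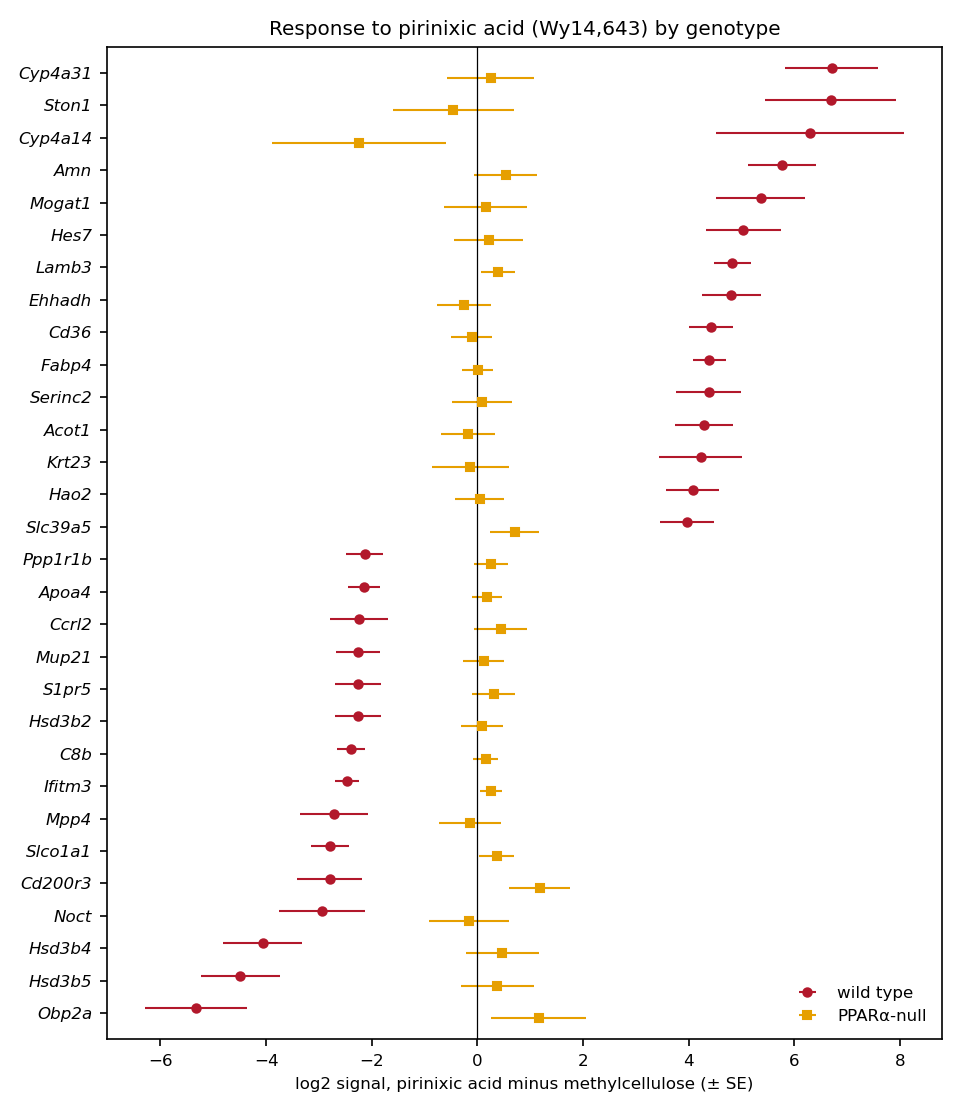
The horizontal axis is the log2 difference, pirinixic acid minus methylcellulose, with its SE, in wild-type mice (red circles) and in PPARα-null mice (orange squares) for the 15 largest rises and 15 largest falls of wild-type mice. The null values lie between -2.24 and 1.18, near 0 for most genes.

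PFOA at 3 mg/kg, a fluorinated fatty acid analogue, changed 1473 probes of wild-type mice against water (852 higher, 621 lower; 5.82%). Doses and vehicles differ between the compounds, so values are set side by side, and the responses share no arrays. All 15 of the largest rises with pirinixic acid also rose with PFOA, among them Ehhadh (4.47 with PFOA, 4.81 with pirinixic acid) and Cd36 (4.36 with PFOA, 4.43 with pirinixic acid), and 8 of the 15 largest falls also fell. The test of PFOA response minus pirinixic acid response found 3 probes (0.0119%; 3392 had an unadjusted p under 0.05). The first was Fabp4, with 0.96 for PFOA and 4.39 for pirinixic acid (difference of responses -3.44 ± 0.43, adjusted p = 0.00014). The second was Cyp2c55, a P450 that CAR and PXR activators induce, with 4.44 for PFOA and 0.66 ± 0.48 for pirinixic acid (difference of responses 3.78 ± 0.66, adjusted p = 0.0268). The last has no gene name here. The count was 51 without PFOA replicate 1, 26 and 6 without pirinixic acid replicate 3 or 1 and 9 without water replicate 1, and it was 1 without PFOA replicate 2, 3 or 4, water replicate 2 or 3 or methylcellulose replicate 2.

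Some groups had different counts in the 2 comparisons, with no test of the difference at the level of the group. Over all genes 4.56% rose and 2.77% fell with PFOA. Cholesterol synthesis and uptake had 1 rise of 15 genes with PFOA (median 0.43), against 9 with pirinixic acid (median 1.18). For Hmgcs1 the difference was 0.84 with PFOA and 2.64 with pirinixic acid (adjusted p of the difference of responses 0.292). Pex11a, which did not pass with pirinixic acid (0.85), rose with PFOA (2.75, adjusted p = 9.24e-05), and Fgf21 had 2.89 with PFOA (adjusted p = 0.0208). Obp2a had -1.95 with PFOA (adjusted p = 0.231), against -5.33 with pirinixic acid, and Apoa4 -0.61 (adjusted p = 0.234), against -2.15. For Pex11a, Fgf21, Obp2a and Apoa4 the difference of responses did not pass the test either.

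**Figure D5:**
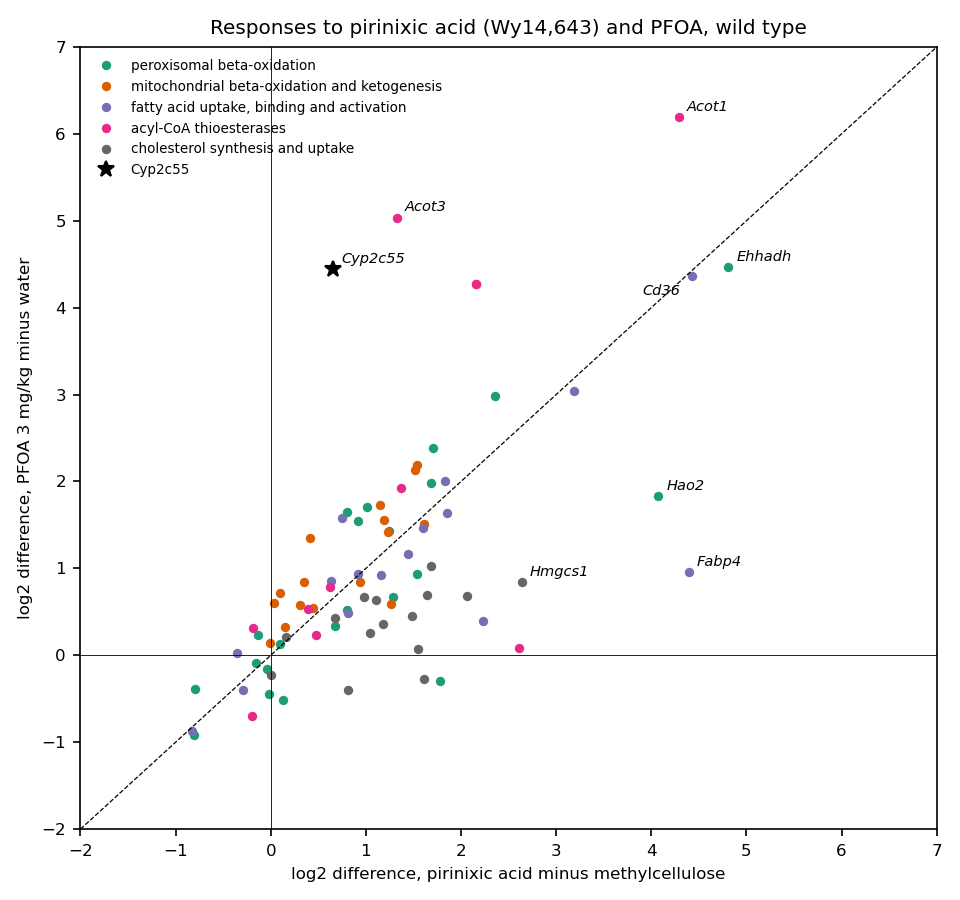
Each point is a gene of 5 lists, with its log2 difference for pirinixic acid minus methylcellulose on the horizontal axis and for PFOA 3 mg/kg minus water on the vertical axis, both in wild-type mice, and the dashed line marks equal values. Fabp4 lies far below the line, at 4.39 and 0.96, and Cyp2c55, added as a star, far above it, at 0.66 and 4.44.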

How the data were processed

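Liver RNA of single mice was measured on 39 arrays, and the deposited table gives 1 log2 signal per probe and array. Per the labels' protocols, RNA had an integrity number of at least 8.5. The values have equal quantiles on every array, read from the deposited log2 values. The base of the logarithm is taken as 2 from their range, 4.85 to 21.55. Neither the labels nor the table state the software, the background correction or why values are missing. The values were used as they stand. Those 25295 probes that lacked no value on the 39 arrays were fitted with limma 3.58.1 (R 4.3.3; lmFit and eBayes, 10 groups, 29 residual degrees of freedom), with Benjamini-Hochberg adjustment over all of them. Of 33012 probes, 14411 have 1 gene symbol, 247 several and 18354 none. Groups follow the titles of the arrays. Pairing by replicate number was examined only between the wild-type pirinixic acid and methylcellulose arrays (correlations of deviations from the group means 0.05, 0.11 and 0.01). Across all groups, replicate number went with the array set. The smaller set held mostly replicates 1 and 4, and no replicate 2.

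Genes were named by rule: the 15 largest rises and 15 largest falls with no overlap between groups and a mean above the median of all probes, up to 6 members of each list with the smallest adjusted p, and a short list always reported. Of several probes for a gene, the brightest was taken. Cyp4f15 was added after its values were seen. The comparison's members, the gene lists and the genes were chosen with earlier results of these data known. Alternatives changed the samples, the normalisation, the filter, the covariates and the array set.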

Additional observations from a re-analysis of the deposited data

Results flagged for a closer look

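Of 157 named genes, 11 had 1 pirinixic acid array that lay far from the other 3 by Dixon's criterion, which chance meets in about 1 in 20 groups. It was replicate 3 for 9 genes, with log2 signals given in brackets: Cyp4a31 (17.79), Slco1a1 (13.21), Acot13 (17.30), Acsl5 (20.46), Cyp2c29 (17.50), Slc10a1 (16.89), Fads2 (16.68), C4bp (16.22) and Proc (17.63). It was replicate 1 for Ephx2 (18.04) and replicate 4 for Ppara (16.07).

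The log2 response to pirinixic acid differed between genotypes, null minus wild type, by the interaction term of limma for 61 named genes, most of which were chosen on the wild-type response. The response was lower in null mice for 29 genes. These were Cyp4a31 (-6.46), Ston1 (-7.14), Amn (-5.24), Mogat1 (-5.21), Hes7 (-4.82), Lamb3 (-4.44), Ehhadh (-5.06), Cd36 (-4.54), Fabp4 (-4.38), Serinc2 (-4.29), Acot1 (-4.47), Krt23 (-4.36), Hao2 (-4.03) and Slc39a5 (-3.27). They were also Crat (-2.63), Acadl (-1.53), Hadhb (-1.25), Decr1 (-1.48), Slc27a1 (-3.49), Fabp2 (-1.41), Acsl5 (-1.60), Dbi (-1.31), Cyp3a13 (-0.86), Gstk1 (-1.16), Elovl5 (-2.02), Fads1 (-0.88), Fads2 (-1.31), Pltp (-3.42) and Mcm5 (-2.17). The response was higher in null mice for 32 genes. These were Obp2a (6.49), Hsd3b5 (4.87), Hsd3b4 (4.54), Cd200r3 (3.98), Slco1a1 (3.16), Ifitm3 (2.72), C8b (2.55), Hsd3b2 (2.35), S1pr5 (2.57), Mup21 (2.37), Apoa4 (2.33), Ppp1r1b (2.40), Cyp4f14 (1.74), Cyp4f18 (1.24), Cyp2c54 (1.91) and Gstp1 (1.35). The others were Akr1c6 (0.83), Apom (1.36), Fbp1 (0.92), Pklr (2.11), Otc (1.45), C1ra (1.42), C2 (1.40), C8a (1.92), Cfb (0.92), C4bp (1.00), Ugt2b1 (2.15), Ghr (0.92), Irf7 (1.90), Ifitm1 (1.78), Trf (1.00) and Eng (0.68). Between compounds in wild-type mice, the PFOA response minus the pirinixic acid response was 3.78 for Cyp2c55 and -3.44 for Fabp4.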

How the results depend on the processing

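The number of probes changed by pirinixic acid in wild-type mice, 1542, was 70 with the arrays of the compared groups only, 249 with the larger set of arrays only and 3225 with array weights. With 1 array left out it was 797 to 2399. With the replicate number as a block it was 1948, and the block ended the call of none of the 138 named genes that passed. Under the other settings tried it was 1191 (clock index as a covariate, chosen after seeing the data) to 2153. The number of probes whose response differed between genotypes, 313, was 588 with the replicate block, 43 with the compared groups only, 2 with the larger set only, 713 over the brighter probes, 504 with a trended robust prior and 1055 with array weights, and 144 to 626 with 1 array left out. The number whose response differed between PFOA and pirinixic acid, 3, was 1 with the replicate block, 0 with the compared groups only, 609 with the larger set only, 1 with the silent-gene index and 1128 with array weights, and 1 to 51 with 1 array left out. The causes of these differences in count were not tested, and the smaller fits also held fewer arrays. None of the 138 named genes reversed under 19 settings, nor did the 124 of them that were fitted with the brighter probes only. The number of them still past the test was 21 with the compared groups only, 41 with the larger set only and 100 without pirinixic acid replicate 3. With the larger set only, peroxisomal beta-oxidation had 2 rises, and mitochondrial beta-oxidation and the thioesterases had 1 each. Fatty acid uptake had 6 rises, cholesterol synthesis 5 rises and complement 4 falls, and coagulation, the Hsd3b family and the Kupffer cell and endothelial markers had no call. Signals near the background of the arrays cannot be told from absent ones, since no detection calls were used here. Among the genes with printed signals, those of Amn, Hao2, Acot5, Cidec, Elovl7, Mcm6 and Aurkb with methylcellulose were below the mean of genes silent in liver. The size of the rises of these genes is therefore uncertain.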
